A study of Homo sapiens with 16 samples.

Results

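The Eph receptors and ephrins described here were 10 genes of the 26475 gene symbols in the count table, chosen by symbol: the A-type receptors EPHA2, EPHA3 and EPHA4, the B-type receptors EPHB2, EPHB3 and EPHB4, the A-type ligands EFNA1 and EFNA5, and the B-type ligands EFNB1 and EFNB2. All 10 were in the table, and all 10 passed the low-count filter that left 16012 genes for testing. They were chosen with earlier results of these libraries known, and which values guided the choice is not recorded. Their differences between groups are therefore given as sizes with standard errors, and whether a gene passed the threshold is stated as a description and not as independent evidence.

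The RNA was poly-A RNA of A375 MA2-Luc cells, an established human BRAF-mutant melanoma line, recovered as metastases from the lungs of NSG mice. NSG mice lack B, T and NK cells, so the host still had myeloid and lung cells but no lymphocyte response. All 16 libraries came from this line, injected behind the eye at 250000 cells, in 4 groups of 4. The mice ate a High Fat or a Ketogenic diet, and on each diet received either no treatment or inhibitors of the BRAF kinase and of MEK 1/2 by gavage 3 times a week for 5 weeks. The groups are called untreated high fat, inhibitor high fat, untreated ketogenic and inhibitor ketogenic. The sources used here give no compound names, doses, age of the mice or vehicle for untreated mice, and no group on an ordinary diet was among the libraries. The design text calls the replicates biological but also speaks of a cultured line, and nothing ties each replicate to its own mouse. P-values therefore measure the spread between these libraries.

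Eph receptors are receptor tyrosine kinases whose ligands, the ephrins, are held on the surface of the neighbouring cell, so the signal passes at contact and runs in both directions. A-type ephrins are anchored by a lipid and mostly bind A-type receptors, while B-type ephrins cross the membrane and mostly bind B-type receptors, with EPHA4 able to bind both kinds. The system sets cell repulsion, boundaries and migration, and in melanoma EPHA2 is known both as a receptor that supports growth without ligand and as a substrate of kinases downstream of the MAPK pathway. EPHA2 and EPHA4 are both members of a published set of genes whose expression reports MAPK pathway output, together with PHLDA1, SPRY2, SPRY4, DUSP4, DUSP6, CCND1, ETV4 and ETV5.

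EPHA2 lies on the minus strand of chromosome 1 (chr1:16124337-16156087, GENCODE 29, GRCh38) and EPHA4 on the minus strand of chromosome 2 (chr2:221418027-221574202). Their 250 bases upstream of the RefSeq start site (GRCh38.p14) are shown because the groups were ordered differently for these genes, with searched motifs in capitals. They lie at chr1:16156070-16156319 and chr2:221574203-221574452 and are written 5′ to 3′ on the strand of the gene.
EPHA2: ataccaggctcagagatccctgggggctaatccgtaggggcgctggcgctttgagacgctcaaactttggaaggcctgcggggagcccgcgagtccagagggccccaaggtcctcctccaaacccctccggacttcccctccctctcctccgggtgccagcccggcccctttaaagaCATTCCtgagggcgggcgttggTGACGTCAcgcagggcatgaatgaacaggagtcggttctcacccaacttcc
EPHA4: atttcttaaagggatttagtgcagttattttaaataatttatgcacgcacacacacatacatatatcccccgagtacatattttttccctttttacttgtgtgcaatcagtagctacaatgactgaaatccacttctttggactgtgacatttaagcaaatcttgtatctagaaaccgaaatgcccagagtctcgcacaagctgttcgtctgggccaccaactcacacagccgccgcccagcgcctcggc
The EPHA2 stretch held the cyclic-AMP response element TGACGTCA, starting 51 bases before the start site, and the TEAD motif GGAATG read on the other strand as CATTCC, starting 73 bases before it. The EPHA4 stretch held none of the motifs searched. It was also the poorest in GC of the 10 members, at 43.2%, against 63.2% for EPHA2 and 61.2 to 84.8% for the members other than EPHA4, and it had 9 CpG where EPHA2 had 15. Over 27305 promoter windows of the same length the median GC was 58.0% and the median was 11 CpG. The motifs were searched on both strands, and the shares of all windows that held them were 6.596% for AP-1 (TGANTCA), 1.77% for the cyclic-AMP element, 6.49% for the E-box (CACGTG), 8.82% for an ETS motif (CCGGAAG) and 11.9% for TEAD. EPHA2 was the only member with any of them. A match describes letters in this window and not a bound factor.

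Totals ran from 37.1 to 77.3 M (M, mega) estimated counts a library, or 32.2 to 51.2 M once 4 ribosomal RNA genes were set aside. Levels below are counts per M counts (CPM) of the library size scaled by TMM, the trimmed mean of M-values. The ribosomal share moved with the groups. It was 32.7% ± 13.5 (SD, n = 4) in untreated high fat, 17.3% ± 2.20 in inhibitor high fat, 23.7% ± 7.97 in untreated ketogenic and 7.08% ± 2.00 in inhibitor ketogenic libraries. Its part in the results was not tested beyond fits that carried it as a covariate or left out the 3 libraries above 30%, given beside the members' calls that they end. These 3 were untreated high fat replicates 2 and 3 and untreated ketogenic replicate 2. Only replicates 1 and 4 of untreated high fat remained in that fit, so fewer libraries and a lower ribosomal share cannot be told apart in it. Melanoma markers were present: of 10 listed, 2 were under 1 CPM in every library, the leading one was SOX10, and the list summed to between 1112 and 1427 CPM. Of 12 endothelial markers 7 were under 1 CPM in every library. Vessel cells carry several Eph receptors and ephrins, so the levels of defining endothelial genes are given: CDH5 was at 0 in 13 of the 16 libraries, and PECAM1 stayed between 0.327 and 1.10 CPM. The endothelial list summed to 121 to 133 CPM in untreated high fat, 172 to 196 in inhibitor high fat, 145 to 160 in untreated ketogenic and 131 to 155 in inhibitor ketogenic libraries. Most of that sum was ENG and KDR, and KDR alone ran from 70.3 to 81.3 CPM in inhibitor high fat libraries against 15.4 to 34.4 in untreated high fat ones. Markers of leukocytes (7 of 11) and of lung epithelium (8 of 10) were under 1 CPM in every library, the most abundant being CD68 and KRT18, while 1 of 11 fibroblast and smooth muscle markers was, and that list, led by FBLN1, summed to 141 to 161, 57.0 to 90.9, 78.2 to 134 and 67.1 to 108 CPM in the same order of groups. Markers of dedifferentiated melanoma, led by TNC, summed to 1122 to 1384, 1074 to 1201, 1467 to 1658 and 860 to 1470.5 CPM. The part of these markers in the results was not tested. The host cells were mouse and the counts were on the human build, with the handling of host reads not given. Marker counts thus come from the human line or from mouse reads that matched human genes, and are not a measure of host cells. In bulk RNA, fewer cells of a type and less RNA per cell cannot be told apart either.

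Per kilobase of exon, and averaged over all 16 libraries, the B-type ligand EFNB2 had the highest level, at 18.1 CPM per kb. The A-type receptor EPHA3 followed at 17.0 and the A-type ligand EFNA1 at 16.2 CPM per kb. EPHA2, EPHB3 and EPHB4 lay close together at 8.13, 7.59 and 7.44 CPM per kb, and EPHB2 and EFNA5 at 4.31 and 3.04. EFNB1 at 1.62 and EPHA4 at 1.19 CPM per kb were the lowest. The bulk RNA thus held transcripts of both A-type and B-type receptors beside those of ligands of both types, and protein was not measured. Of the receptor pair compared most closely here EPHA2 was the abundant and EPHA4 the scarce transcript.

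**Figure D1:**
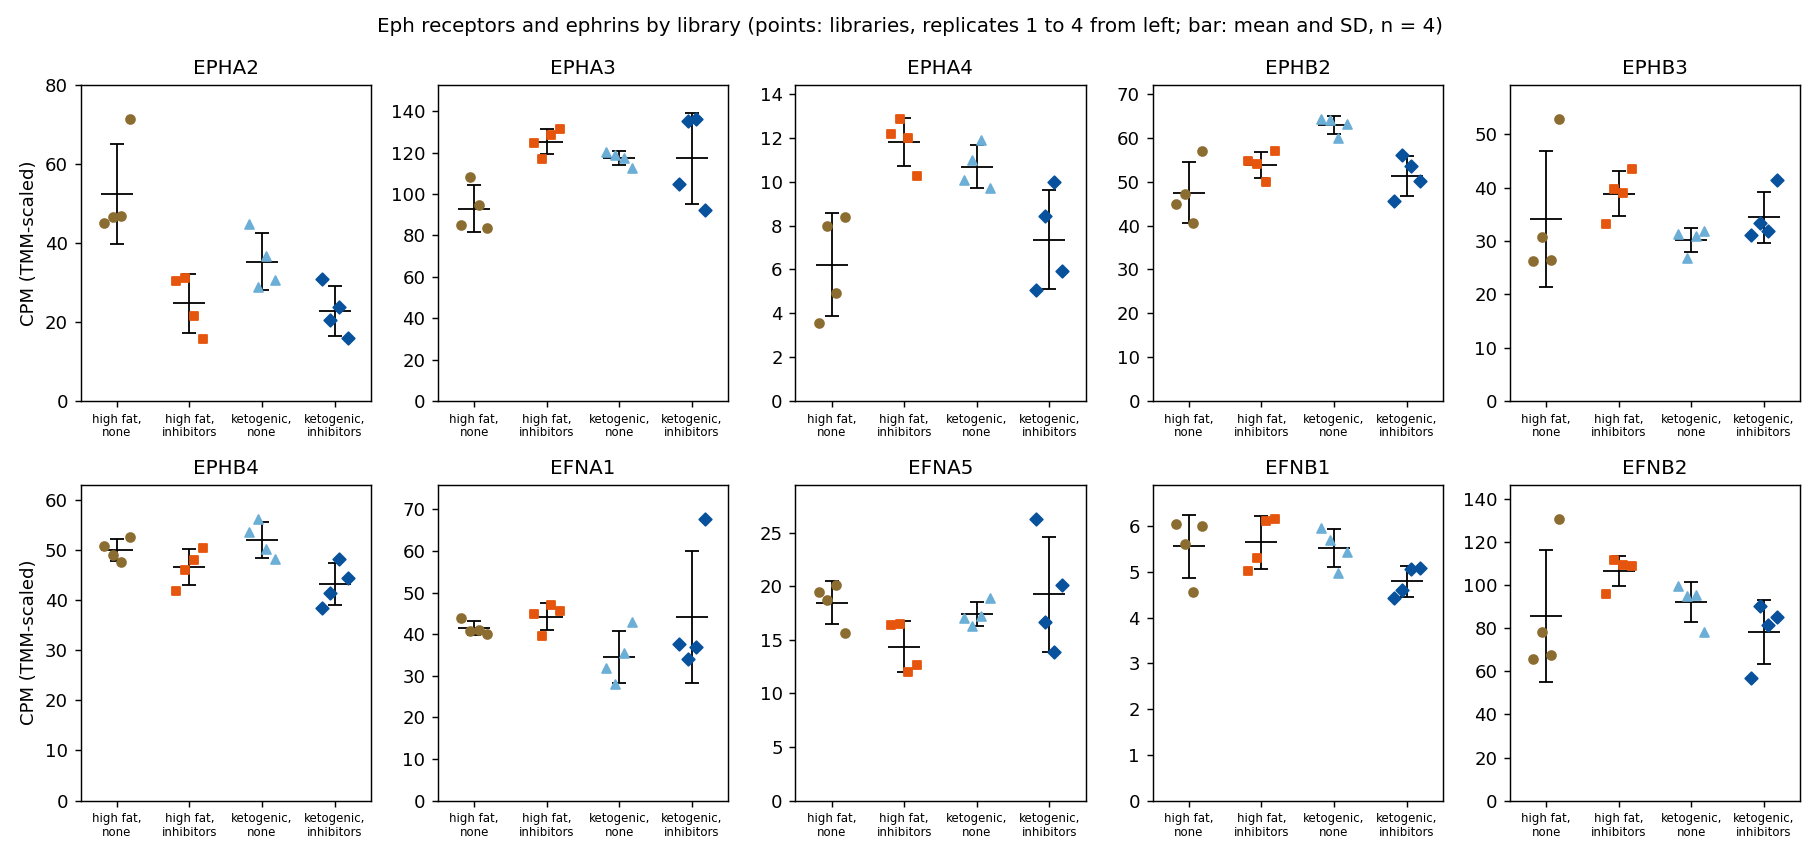
Level of each of the 10 genes in every library, in CPM on its own axis starting at 0, with points for the 4 libraries of each group and a bar at the group mean. EPHA2 is highest in the untreated high fat libraries (45.02 to 71.5 CPM), the group in which EPHA4 has its lowest mean (6.21 CPM).

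EPHA2 was lower with the inhibitors on the high fat diet. The untreated high fat libraries had 45.02, 46.7, 47.0 and 71.5 CPM, and the inhibitor high fat libraries 30.5, 31.2, 21.4 and 15.7 CPM. Every untreated library was above every treated one, and the means were 52.5 ± 12.7 and 24.7 ± 7.49 CPM (SD, n = 4 each). The log2 fold change was -1.09 (standard error, SE, 0.24), and it was past the threshold of the edgeR quasi-likelihood test over all genes, which is the fit meant below unless another is named. On the ketogenic diet the untreated libraries had 44.8, 28.9, 36.8 and 30.5 CPM and the treated libraries 30.95, 20.4, 23.8 and 16.1 CPM. These groups overlapped, since the highest treated library lay above 2 of the untreated ones. The log2 fold change there was -0.63 (SE 0.24) and was not past the threshold, and in limma voom with sample quality weights it was -0.76 and past it. The inhibitor effect was 0.46 (SE 0.33) less negative on the ketogenic diet, a difference that was not past the threshold. Between untreated diets EPHA2 was -0.58 (SE 0.24) on ketogenic against high fat, not past the threshold, with groups separated by the narrow gap between 44.8 and 45.02 CPM. Under inhibitors the diets differed by -0.11 (SE 0.24), with values interleaved and a sign that turned to 0.057 when counts were scaled by library size alone. The groups therefore ran from untreated high fat down through untreated ketogenic and inhibitor high fat to inhibitor ketogenic, a 2.30-fold span, and only the first pair of neighbours did not overlap.

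EPHA4, an A-type receptor best known from axon guidance, had another order of groups. In untreated high fat libraries it had 3.56, 7.97, 4.91 and 8.40 CPM, and in inhibitor high fat libraries 12.2, 12.9, 12.0 and 10.3 CPM. All treated libraries were above all untreated ones, with means of 6.21 ± 2.35 and 11.8 ± 1.10 CPM, so EPHA4 was higher with the inhibitors where EPHA2 was lower. The log2 fold change was 0.93 (SE 0.24) and was past the threshold, though in the fit with the ribosomal share as a covariate it was 0.77 and was not. In untreated ketogenic libraries EPHA4 had 10.1, 11.004, 11.9 and 9.72 CPM, and in inhibitor ketogenic libraries 5.06, 8.42, 9.99 and 5.94 CPM. The treated ketogenic libraries lay lower, with means of 7.35 ± 2.26 against 10.7 ± 0.983 CPM and a small overlap at the top of the treated range. That log2 fold change was -0.54 (SE 0.24), not past the threshold.

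The inhibitor effect on EPHA4 thus had opposite signs on the diets, and the interaction term of the fit gave a difference of -1.47 (SE 0.34) on the log2 scale, ketogenic minus high fat, which was past the threshold. Leaving out each of the 16 libraries in turn kept it past the threshold, between -1.66 and -1.28. With the ribosomal share as a covariate it was -1.66 and without the 3 libraries above 30% ribosomal RNA it was -1.50, and in both of these fits it was not past the threshold. In the same fits 0.187% and 0% of all genes were past it, against 9.02% in the fit of all libraries. Without inhibitors EPHA4 was higher on the ketogenic diet, with no overlap and a log2 fold change of 0.78 (SE 0.24) past the threshold. That call ended in 5 of 8 left-out fits (without untreated high fat replicate 1 or 3, or untreated ketogenic replicate 1, 2 or 3), and the values ran from 0.59 to 0.97. It also ended with the ribosomal covariate (0.70, where 10.9% of all genes were past the threshold) and without the 3 libraries above 30% (0.81, where 0% were). With inhibitors EPHA4 was lower on the ketogenic diet by a log2 value of -0.69 (SE 0.24), with no overlap but not past the threshold. In order, inhibitor high fat was highest, then untreated ketogenic, inhibitor ketogenic and untreated high fat, a 1.90-fold span in which every neighbour overlapped the next.

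The ratio of EPHA2 to EPHA4 in the same library put the contrast in 1 number. In untreated high fat libraries it was 9.15 ± 2.82 (SD, n = 4; 5.86 to 12.7), and 2.06 ± 0.48 in inhibitor high fat libraries, with a range of 1.53 to 2.51. On the ketogenic diet it was 3.32 ± 0.78 without and 3.41 ± 1.81 with inhibitors. The high fat groups did not overlap and the ketogenic groups did, and in the last group replicate 1 stood out at 6.12. Apart from that library, every ratio of the other groups was below the lowest untreated high fat ratio.

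**Figure D2:**
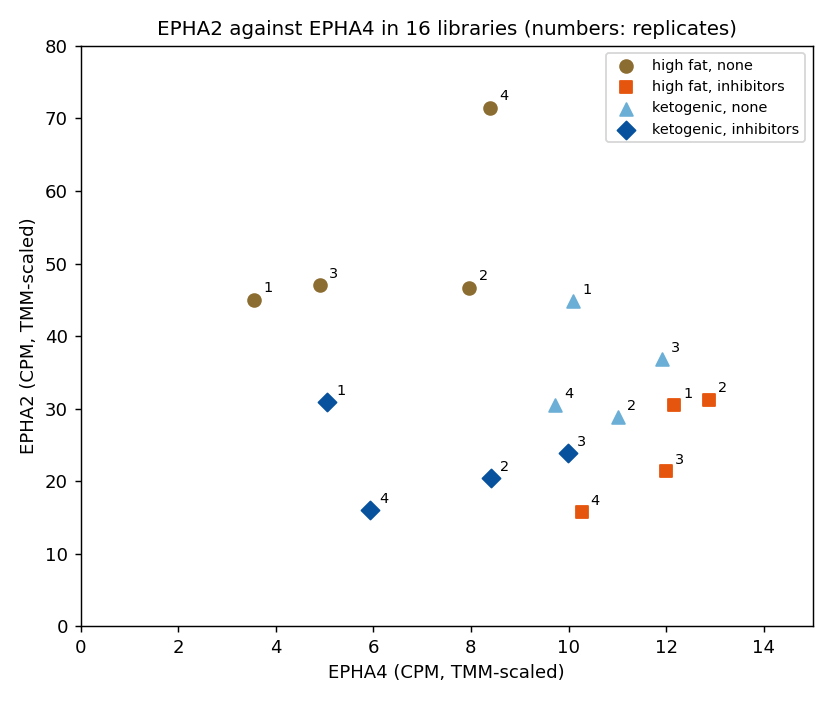
EPHA2 against EPHA4 in each of the 16 libraries, both in CPM, with groups marked by colour and shape. Untreated high fat libraries lie at high EPHA2 and low EPHA4 (45.02 to 71.5 and 3.56 to 8.40 CPM) and inhibitor high fat libraries at low EPHA2 and high EPHA4 (15.7 to 31.2 and 10.3 to 12.9 CPM).

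EPHA3 (chr3:89107524-89482134, plus strand), the most abundant receptor here, was higher with inhibitors on the high fat diet. The untreated high fat libraries had 85.1, 108, 94.6 and 83.7 CPM and the inhibitor high fat libraries 125, 117, 128 and 131 CPM. The groups did not overlap, and the log2 fold change of 0.43 (SE 0.12) was past the threshold there and in all 8 left-out fits. EPHA2, EPHA3 and EPHA4 were the 3 of 10 members past the threshold in this comparison, 1 lower and 2 higher, where 42.3% of all genes tested were past it, 20.6% higher and 21.7% lower. The same 3 were the members whose groups did not overlap, against 44.7% of all genes. These shares are near or below the background, and nothing about the family follows from the count. The members' median log2 fold change was 0.14, against -0.03 over all genes tested.

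Ketogenic libraries had EPHA3 at 120.1, 119, 117 and 113 CPM without inhibitors and at 105, 135, 136 and 92.5 CPM with them. The treated libraries spread to both sides of the untreated ones, and the log2 fold change was -0.00 (SE 0.12). The difference between diets in the inhibitor effect was -0.43 (SE 0.17), not past the threshold. Untreated ketogenic libraries all lay above untreated high fat ones, with a log2 fold change of 0.34 (SE 0.12), also not past it in edgeR with all libraries. It was past it in 5 of 12 other settings (DESeq2, limma voom, library size alone, only the libraries compared, and without the 4 libraries least like their group) and without untreated high fat replicate 2. Under inhibitors the diets differed by -0.10.

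**Figure D3:**
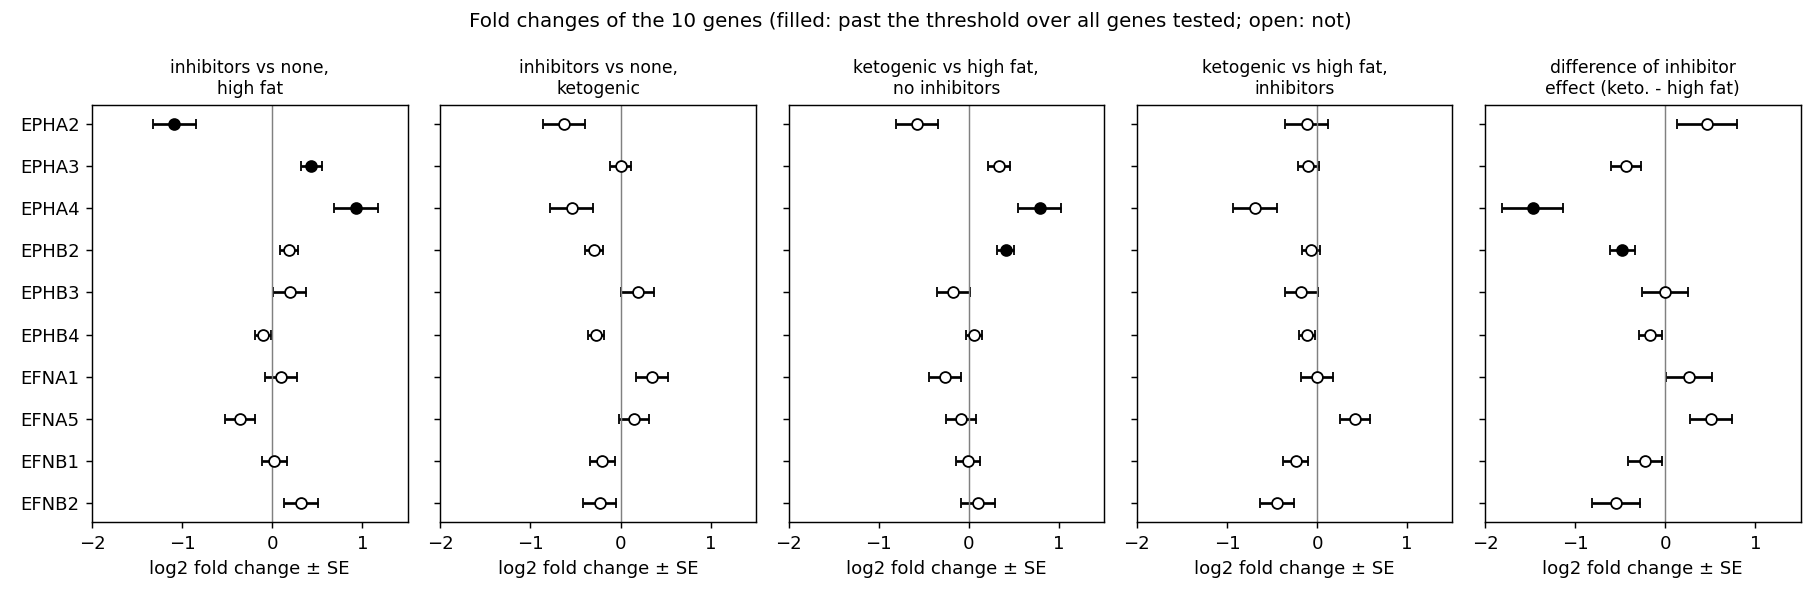
Log2 fold change with its standard error for the 10 genes in each of the 5 comparisons, with filled points for values past the threshold (adjusted p under 0.05 over 16012 genes). EPHA2, EPHA3 and EPHA4 are filled for inhibitors on the high fat diet, EPHA4 and EPHB2 for the untreated diets and for the difference of effects, and no gene for inhibitors on the ketogenic diet or for the diets under inhibitors.

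EPHB2 (chr1:22710839-22921500, plus strand), a B-type receptor of boundary formation, was highest in the untreated ketogenic libraries. These had 64.4, 64.1, 60.1 and 63.1 CPM, while the untreated high fat libraries had 44.97, 47.2, 40.6 and 57.0 CPM. The groups did not overlap and the log2 fold change of 0.41 (SE 0.10) was past the threshold. Without untreated high fat replicate 3 it was 0.35, and without the 3 libraries above 30% ribosomal RNA 0.28, and it was past the threshold in neither. With inhibitors EPHB2 had 54.8, 54.1, 49.9 and 57.0 CPM on the high fat diet and 45.6, 56.2, 53.6 and 50.1 CPM on the ketogenic diet. The inhibitor comparison was 0.18 (SE 0.10) on high fat, with overlap, and -0.29 (SE 0.10) on ketogenic, without overlap, and neither was past the threshold. The high fat value was past it in limma voom (0.27), with library size alone (0.44), without the 4 libraries least like their group (0.28) and without untreated high fat replicate 4 (0.28). The difference of inhibitor effects between diets, -0.48 (SE 0.14), was past the threshold, but stayed so in only 5 of 16 left-out fits, where the values ran from -0.58 to -0.42. The 11 libraries whose removal ended it were in all 4 groups: untreated high fat replicates 1 to 3, all 4 of inhibitor high fat, untreated ketogenic replicates 1 to 3 and inhibitor ketogenic replicate 1. It was also not past the threshold with the ribosomal share as a covariate, without the 3 libraries above 30% ribosomal RNA, with library size alone or with no low-count filter.

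EPHA4 and EPHB2 were the 2 of 10 members past the threshold between untreated diets, both higher on ketogenic, where 13.5% of all genes were past it, 7.99% higher and 5.51% lower on ketogenic. They were also the 2 of 10 past it for the difference of inhibitor effects, both lower, where the background was 9.02%, with 4.36% higher and 4.66% lower. For inhibitors on the ketogenic diet 0 of 10 members were past the threshold in edgeR, 4 had an unadjusted p under 0.05, and limma voom called 2, EPHA2 and EPHB4, both lower, where it called 9.09% of all genes. The edgeR background was 1.74% of all genes, 0.856% higher and 0.887% lower, and 1 member's groups (EPHB2) did not overlap, against 10.3% of genes. For the diets under inhibitors 0 of 10 were past the threshold in edgeR and in limma voom, with 3 at an unadjusted p under 0.05 and a background of 0.169%. EPHA4 and EFNB2 did not overlap there, against 7.14% of genes. Between untreated diets 4 members did not overlap (EPHA2, EPHA3, EPHA4 and EPHB2), against 25.5% of genes. The comparisons share groups of libraries, so their values are not independent of each other.

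EPHB3 (chr3:184561784-184582409, plus strand), the close relative of EPHB2, had 1 library apart from the others in the untreated high fat group. The values there were 26.3, 30.7, 26.3 and 52.9 CPM, and in the inhibitor high fat group 33.2, 39.7, 39.0 and 43.6 CPM. The first 3 untreated libraries were below every treated one and replicate 4 was above them all. The log2 fold change was 0.19 (SE 0.18) and not past the threshold. Without that replicate it was 0.49 (SE 0.12) and past it. It was also past it in limma voom with all libraries (0.47) and without the 4 libraries least like their group (0.56). Untreated ketogenic libraries had 30.2 ± 2.25 and inhibitor ketogenic ones 34.4 ± 4.79 CPM, with a log2 fold change of 0.19 (SE 0.18).

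EPHB4 (chr7:100802565-100827521, minus strand), the receptor of EFNB2 in developing veins, varied least of the receptors over the groups. Its means were 49.9 ± 2.18 in untreated high fat, 46.5 ± 3.57 in inhibitor high fat, 52.0 ± 3.59 in untreated ketogenic and 43.1 ± 4.21 CPM in inhibitor ketogenic libraries. The span was 1.21-fold, and all neighbours in the order overlapped. The inhibitor comparison gave -0.10 (SE 0.09) on the high fat and -0.27 (SE 0.09) on the ketogenic diet, neither past the threshold.

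Of the ligands, EFNB2 (chr13:106489731-106535662, minus strand), the partner of EPHB4 and EPHB2, carried the same exceptional library as EPHB3. The untreated high fat libraries had 65.7, 78.4, 67.4 and 131 CPM and the inhibitor high fat libraries 96.1, 112, 109 and 109 CPM. The first 3 untreated libraries lay below every treated one, and replicate 4 lay above all. The log2 fold change over all libraries was 0.32 (SE 0.19), not past the threshold, and without replicate 4 it was 0.60 (SE 0.14) and past it. It was also past it in limma voom with all libraries (0.56) and without the 4 libraries least like their group (0.65). On the ketogenic diet the untreated libraries had 99.5, 95.04, 95.2 and 78.4 CPM and the treated ones 56.8, 90.1, 81.3 and 85.1 CPM, which overlapped, with a log2 fold change of -0.23 (SE 0.19). Every treated ketogenic library was below every treated high fat library, a difference of -0.44 (SE 0.19) that was not past the threshold. The difference of inhibitor effects between diets was -0.55 in edgeR, not past the threshold. It was past it in limma voom (-0.73), without the 4 libraries least like their group (-0.74) and without untreated high fat replicate 4 (-0.83). Between untreated diets EFNB2 was 0.10, not past the threshold in edgeR, but past it in limma voom (0.35) and without those 4 libraries (0.39).

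EFNB1 (chrX:68828997-68842147, plus strand), the other B-type ligand, was low and near level. Its group means ran from 4.79 ± 0.339 CPM in inhibitor ketogenic to 5.65 ± 0.579 CPM in inhibitor high fat libraries, a 1.18-fold span with overlap between all neighbours. No comparison of EFNB1 was past the threshold, and the inhibitor fold changes were 0.02 (SE 0.14) on high fat and -0.20 (SE 0.14) on ketogenic.

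EFNA1 (chr1:155127460-155134857, plus strand), the main known ligand of EPHA2, was past the threshold in no comparison in edgeR, and in limma voom was called between untreated diets, at -0.31. Its means were 41.5 ± 1.65 in untreated high fat, 44.2 ± 3.24 in inhibitor high fat and 34.6 ± 6.31 CPM in untreated ketogenic libraries. The inhibitor ketogenic libraries had 37.7, 34.1, 36.9 and 67.8 CPM, so that 1 library lay above the other 3 and the mean was 44.1 ± 15.9. The inhibitor comparison gave 0.09 (SE 0.18) on the high fat and 0.35 (SE 0.18) on the ketogenic diet, neither past the threshold. The ketogenic value ran from 0.069 to 0.47 when 1 library was left out. The difference of effects for EFNA1 was 0.26 over all libraries and ran from -0.02 to 0.38 in such fits. EFNA5 (chr5:107376889-107670895, minus strand), an A-type ligand with EPHA3 among its receptors, had group means of 18.5 ± 1.98, 14.4 ± 2.38, 17.4 ± 1.11 and 19.2 ± 5.36 CPM in the same order of groups. Its inhibitor fold changes were -0.36 (SE 0.17) on high fat, called as lower in 3 other settings, and 0.15 (SE 0.17) on ketogenic, and the difference of 0.51 (SE 0.23) was not past the threshold.

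The genes were also compared within groups, as deviations of log2 CPM from the group mean over the 16 libraries, which removes the differences between groups. These correlations are descriptions of libraries that share depth and scaling. Of 45 pairs 27 were positive, with a median of 0.12, which was 0.47 with library size alone and 0.041 to 0.18 when 1 library was left out, lowest without untreated high fat replicate 4. The highest was 0.81, between EPHB2 and its ligand EFNB2, followed by 0.80 for EPHB3 with EFNB2 and 0.75 for EPHB4 with EFNB1. EPHA4 went with EFNB2 at 0.69 and with EPHB2 at 0.62. The lowest was -0.79, between EPHB4 and EFNA5, and EFNA5 also ran against EFNB2, at -0.65. EPHA2 and EPHA4 were at 0.26 within groups and at -0.23 over all 16 libraries. The former was 0.44 with library size alone, 0.081 without untreated high fat replicate 4 and 0.53 without inhibitor ketogenic replicate 1. Untreated high fat replicate 4 was the high library for EPHB3 and EFNB2 and is 1 of the 16 points.

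**Figure D4:**
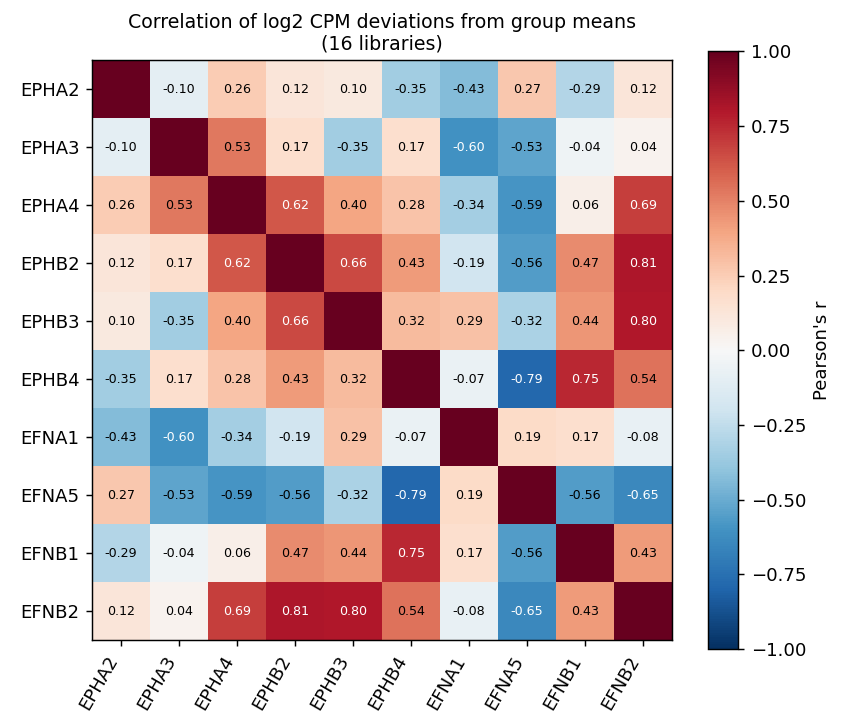
Pearson's r between each pair of the 10 genes, from log2 CPM deviations from the group mean over 16 libraries, on a colour scale from -1 to 1. The B-type receptors and EFNB2 form the block of positive values (EPHB2 with EFNB2 0.81, EPHB3 with EFNB2 0.80), and EFNA5 holds the most negative ones (-0.79 with EPHB4).

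The 5 genes most like EPHA2, by Pearson's r of log2 CPM over the 16 libraries among tested genes with a mean of at least 5 CPM, were DENND3 (0.93), CSNK1E (0.93), FBRSL1 (0.91), ADAMTS7 (0.91) and SMAD3 (0.91). SMAD3, a transducer of TGF-beta signals, had 155 ± 16.1 CPM in untreated high fat libraries and 86.5 ± 16.6 in inhibitor high fat ones. Within groups these 5 genes correlated with EPHA2 at 0.67 to 0.81. The 5 most like EPHA4 were EHD2 (0.89), NEK4 (0.88), USP53 (0.88), ACTN1 (0.88) and PLEC (0.88). EHD2, a protein of caveolae, had 45.2 ± 5.69 and 69.0 ± 1.98 CPM in the same groups, and ACTN1 and PLEC encode the actin crosslinker alpha-actinin and the linker plectin. Within groups these 5 correlated with EPHA4 at 0.72 to 0.80. Both sets were picked by r over the same 16 libraries, and that r includes the deviations within groups. High within-group values thus follow in part from the choice and are not separate evidence. No other member ranked among either set of 5.

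A further 12 Eph and ephrin genes were in the table, of which 5 passed the low-count filter. EFNB3, the third B-type ligand, had 8.42, 7.88, 8.59 and 5.98 CPM in untreated high fat and 3.69, 3.47, 3.24 and 3.11 CPM in inhibitor high fat libraries. The groups did not overlap, and EFNB3 fell with a log2 fold change of -1.19 (SE 0.20, edgeR quasi-likelihood test, adjusted p = 0.000296), lower in 4 of 4 treated libraries. It was the 1 of 5 past the threshold in that comparison, where 42.3% of all genes were. On the ketogenic diet the untreated mean was 6.16 ± 0.469 and the treated mean 4.58 ± 1.60 CPM, with a log2 fold change of -0.43 (SE 0.20, edgeR adjusted p = 0.256). The treated replicate 1, at 6.87 CPM, was above all untreated ketogenic libraries, and without it the value was -0.69 (edgeR adjusted p = 0.0373). This ketogenic value also passed in limma voom (-0.59, limma voom adjusted p = 0.0182) and without the 4 libraries least like their group (-0.64, edgeR adjusted p = 0.0287). Between diets the inhibitor effect on EFNB3 differed by 0.77 (SE 0.28, edgeR adjusted p = 0.0881) and did not pass the test. It passed in limma voom (0.70, limma voom adjusted p = 0.0112), without the 4 libraries least like their group (0.70, edgeR adjusted p = 0.0267) and without inhibitor ketogenic replicate 4 (0.87, edgeR adjusted p = 0.0419). Untreated diets differed by -0.33, which passed in limma voom (-0.44, limma voom adjusted p = 0.00676) and without those 4 libraries (-0.42, edgeR adjusted p = 0.0222) but not in the main fit. EFNB3 thus fell with inhibitors on the high fat diet. The other B-type ligands, at 0.02 for EFNB1 and 0.32 for EFNB2, were not past the threshold there in edgeR with all libraries.

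EFNA2, an A-type ligand, had -1.07 (SE 0.42, edgeR adjusted p = 0.0508) for the inhibitors on high fat, at levels of 0.423 and 0.201 CPM. That value passed in limma voom (-0.87, limma voom adjusted p = 0.0393) and without untreated high fat replicate 1 (-1.24, edgeR adjusted p = 0.0416). EPHB1 was low everywhere, with group means of 0.162 to 0.689 CPM, and its value between untreated diets was 2.09 (SE 0.79, edgeR adjusted p = 0.0846). It passed no edgeR test with all libraries. Without inhibitor high fat replicate 1, where it was at 0, it passed for inhibitors on high fat (1.95, edgeR adjusted p = 0.0127) and for the difference of effects (-2.94, edgeR adjusted p = 0.0310). Without the 4 libraries least like their group it also passed in both (1.79, edgeR adjusted p = 0.00512, and -2.30, edgeR adjusted p = 0.0250). Between untreated diets it passed in DESeq2 (DESeq2 adjusted p = 0.0364), with only the libraries compared (2.12, edgeR adjusted p = 0.00986) and without those 4 libraries (1.94, edgeR adjusted p = 0.00512). EFNA4, on chromosome 1 near EFNA3 and EFNA1, had group means between 5.53 and 6.20 CPM, and EFNA3 between 1.73 and 2.83 CPM, and neither passed an edgeR test with all libraries. The remaining 7 genes (EPHA1, EPHA5, EPHA6, EPHA7, EPHA8, EPHA10 and EPHB6) had 6 to 27 estimated counts in all 16 libraries together and were not tested.

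Of the 8 other MAPK output genes, DUSP6 rose and PHLDA1, SPRY4 and ETV4 fell with inhibitors on the high fat diet. The list has 1 of 8 higher and 3 of 8 lower, beside the background of 20.6% and 21.7% for all genes, and its median was -0.20. DUSP6, the phosphatase that switches off ERK, had a log2 fold change of 0.68 (SE 0.22, edgeR adjusted p = 0.0196), which was not past the threshold without untreated high fat replicate 1, 2 or 3 and was 1.04 without replicate 4. The call also ended with only the libraries compared (0.69, edgeR adjusted p = 0.0550), with the ribosomal covariate (0.56, edgeR adjusted p = 0.122) and without the 3 libraries above 30% ribosomal RNA (0.39, edgeR adjusted p = 0.287). PHLDA1 was at -0.56 (edgeR adjusted p = 0.00365), SPRY4, an inhibitor of receptor tyrosine kinase signalling, at -0.63 (edgeR adjusted p = 0.00933) and the transcription factor ETV4 at -0.41 (edgeR adjusted p = 0.0130). In the fit scaled by library size alone these 3 were not past the threshold. SPRY2 at -0.39, CCND1 at 0.02, DUSP4 at 0.08 and ETV5 at -0.01 did not pass. On the high fat diet EPHA2 thus had the sign of the 3 genes that fell and EPHA4 that of DUSP6. On the ketogenic diet DUSP6 was at 0.37 and EPHA4 at -0.54, with opposite signs. PHLDA1, SPRY4 and ETV4 were at -0.03, -0.18 and -0.14 there and EPHA2 at -0.63, none past the threshold in edgeR with all libraries. For inhibitors on ketogenic 0 of 8 passed in edgeR, with 0 at an unadjusted p under 0.05 and 0 in limma voom. DUSP6 and SPRY4 had been seen in earlier results of these libraries.

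**Figure D5:**
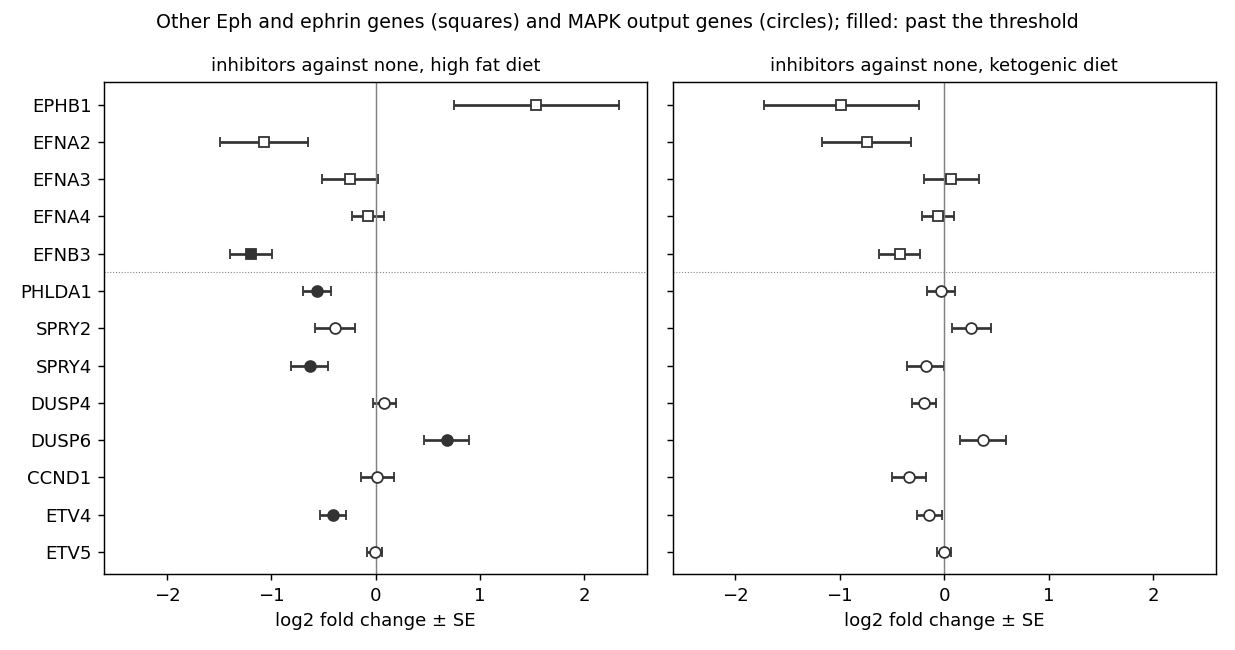
Log2 fold change with its standard error for the inhibitors on each diet, for 5 other Eph and ephrin genes (squares) and 8 other MAPK output genes (circles), filled where the edgeR adjusted p was under 0.05. On the high fat diet EFNB3 (-1.19), PHLDA1, SPRY4, ETV4 and DUSP6 (0.68) are filled, and on the ketogenic diet no gene is.

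Downstream of the receptors, 61 genes of Eph and ephrin signalling were listed (adaptors, exchange factors, kinases of the cytoskeleton, proteases and scaffolds), and 59 were tested. With inhibitors on the high fat diet 18 rose and 3 fell, beside 20.6% and 21.7% of all genes, and the list's median was 0.13 against -0.03. CFL1, the actin-severing protein cofilin, rose by 1.04 (SE 0.13, edgeR adjusted p = 5.29e-05). CDC42, a GTPase of filopodia, rose by 0.84 (SE 0.11, edgeR adjusted p = 5.10e-05), and the adaptor GRB2 by 0.55 (SE 0.09, edgeR adjusted p = 0.000228). The 3 that fell were NGEF, the exchange factor ephexin that acts downstream of EPHA4, at -1.15 (SE 0.26, edgeR adjusted p = 0.00222), the adaptor NCK2 at -0.45 (SE 0.12, edgeR adjusted p = 0.00604) and GRIP1, a scaffold of B-type ephrins, at -1.15 (SE 0.43, edgeR adjusted p = 0.0415). Without the 3 libraries above 30% ribosomal RNA 13 passed, 9 higher and 4 lower, where 23.6% of all genes passed.

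With inhibitors on the ketogenic diet 1 of 59 passed, PICK1, a PDZ scaffold, at 0.59 (SE 0.14, edgeR adjusted p = 0.0427), against 1.74% of all genes. Between untreated diets 7 of 59 rose on ketogenic and 0 fell, against 7.99% and 5.51% of all genes, among them CDC42 at 0.57 (edgeR adjusted p = 0.00444), CFL1 at 0.68 (edgeR adjusted p = 0.00563) and LIMK1, the kinase that acts on cofilin, at 0.34 (edgeR adjusted p = 0.0138). For the difference of inhibitor effects 5 of 59 passed, all lower on ketogenic, against 4.66% of all genes. Of these, CDC42 was at -0.75 (edgeR adjusted p = 0.0113), CFL1 at -0.73 (edgeR adjusted p = 0.0270) and SIPA1L1 at -0.84 (edgeR adjusted p = 0.0349). CDC42 and CFL1 had the signs of EPHA4 in 3 comparisons: higher with inhibitors on high fat, higher on ketogenic without them, and a lower inhibitor effect on ketogenic. All 3 comparisons include the untreated high fat libraries, so a gene low in that group alone shows these signs in each. Both genes were also named for their small p in these comparisons. The share of all genes with the same signs was not computed, and a link to EPHA4 was not tested. Under inhibitors 0 of 59 passed between diets in edgeR, 2 had an unadjusted p under 0.05, and limma voom called 3, all lower on ketogenic. PICK1's call ended without any 1 untreated ketogenic library and without inhibitor ketogenic replicate 1 or 4. The 7 between untreated diets became 2 to 4 without untreated high fat replicate 1 or 3 or untreated ketogenic replicate 1 or 2. The 5 for the difference of effects became 1 to 3 without untreated high fat replicate 1, 2 or 3, inhibitor high fat replicate 2, 3 or 4, untreated ketogenic replicate 1 or 2, or inhibitor ketogenic replicate 1. Without the 3 libraries above 30% ribosomal RNA all 3 counts were 0, where 0.324%, 0% and 0% of all genes passed.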

How the data were processed

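The deposited table holds RSEM expected counts, not scaled for depth, for 26475 gene symbols and 16 libraries. Bowtie2 2.1.0, RSEM 1.2.15 and the build hg38 come from the submitters' processing notes. Annotation, strandedness and the handling of host reads were not given in the sources used here. In all, 13.0% of values were not whole, and all were rounded. After edgeR's filterByExpr on the 4 groups, 16012 genes were scaled by TMM. edgeR 4.0.16 in R 4.3.3 fitted group means over the 16 libraries together, with its robust quasi-likelihood method. The 5 comparisons were tested two-sided and adjusted by Benjamini-Hochberg over all genes, with a threshold of 0.05. Fold changes are on edgeR's log2 scale, and the common biological variation (coefficient) was 0.228. No pair of libraries shared more than 1.09% identical values.

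The members were chosen, and the lists drawn up, with earlier results of these data known. The signalling list came from textbook knowledge, without use of the values of its genes. The other family list holds the family genes that the members leave out. The text names all members, all tested genes of the other family list, the 8 MAPK output genes, the 3 signalling genes of smallest p in each direction, the 5 genes most like EPHA2 and EPHA4 (prior count 2 in log2 CPM), the leading marker of each cell type list, and several endothelial markers. Coordinates are 1-based GENCODE 29, and promoter windows come from RefSeq GRCh38.p14, where all 10 members matched. Alternatives included DESeq2 1.42.0, limma 3.58.1 voom, other scalings and filters, a covariate, a replicate block and left-out libraries. On simulated counts of 16012 genes, 2-fold changes were recovered in 69% of cases for inhibitors on high fat, 57% on ketogenic, 56% for untreated diets, 63% for diets under inhibitors and 38% for the difference of effects, and 1.5-fold changes in 24%, 26%, 29%, 31% and 4%. In each simulation only a small set of genes, drawn at random from all levels, was changed. For inhibitors on high fat 42.3% of all genes were past the threshold. The shares therefore describe that simulated setting and are not recovery rates for the members.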

Additional observations from a re-analysis of the deposited data

Results flagged for a closer look

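The groups of 4 libraries checked were those of the members, other family and MAPK output genes, and of the EPHA2 to EPHA4 difference. In 11 of 96 the highest library lay further from the rest than Dixon's 95% critical value allows. Chance gives about 1 in 20 for independent groups. These come from the same 16 libraries and are not independent, so the count cannot be set against that rate. Untreated high fat replicate 4 was the flagged library for 6 genes. EPHA2 was 71.5 CPM there against 45.02 to 47.0 in the others, and EPHB3 was 52.9 against 26.3 to 30.7. CCND1 was 406 against 224 to 245, DUSP6 485 against 212 to 249, ETV4 214 against 149 to 157 and SPRY2 385 against 239 to 252 CPM. Inhibitor ketogenic replicate 4 was the high library for EFNA1 (67.8 against 34.1 to 37.7), DUSP6 (535 against 344 to 360) and SPRY2 (377 against 192 to 219). DUSP6 was also high in inhibitor high fat replicate 1, at 510 against 448 to 457 CPM. The log2 difference of EPHA2 minus EPHA4 was 2.605 in inhibitor ketogenic replicate 1 against 1.25 to 1.43 in the others of its group.

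The inhibitor effect differed between diets by the interaction term for EPHA4, at -1.47, and for EPHB2, at -0.48, both on the log2 scale and ketogenic minus high fat. Both genes are among the members, so these are descriptions. For EPHB2 the call was kept in 5 of 16 left-out fits.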

How the results depend on the processing

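EPHA2 on the high fat diet with inhibitors was past the threshold in all 12 other settings (-1.26 to -0.83) and all 8 left-out fits (-1.22 to -0.90, the last without untreated high fat replicate 4). On the ketogenic diet it was -0.76 and past it in limma voom. Between diets under inhibitors it was 0.00990 in limma voom, 0.057 with library size alone and -0.30 to 0.022 in left-out fits. For EPHA4, the ribosomal covariate ended the calls for the difference of effects (-1.66), inhibitors on high fat (0.77) and untreated diets (0.70). Without the 3 libraries over 30% ribosomal RNA, a setting chosen after seeing the data, the difference (-1.50) and untreated diets (0.81) lost theirs. Left-out fits gave 0.59 to 0.97 for the last.

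The number of members past the threshold was 3 for inhibitors on high fat, against 7 in limma voom (62.1% of all genes called), 7 without the 4 libraries least like their group (54.5%, also chosen after seeing the data), 2 with the covariate (30.3%) and 3 to 6 in left-out fits (33.5 to 41.8%). The 6 came without untreated high fat replicate 4, with EPHB2, EPHB3 and EFNB2 added as higher. With library size alone (38% of all genes called) EPHB2 was added as higher, and with only the libraries compared (48.7%) EFNA5 as lower. For inhibitors on ketogenic the number of members was 0, against 2 in limma voom (9.09%). For untreated diets it was 2, against 5 in limma voom (39.9%), 1 with the covariate (10.9%), 4 without the least-like libraries (32.2%), 0 without the high ribosomal ones (0%) and 0 to 3 in left-out fits (4.79 to 16.3%), the 0 without untreated high fat replicate 3. It was 3, with EPHA3 added, in DESeq2 (20.5%), with library size alone (10.3%) and with only the libraries compared (21.5%). For the difference it was 2, against 3 in limma voom (32.5%), 1 with library size alone (1.49%), 1 with no filter (4.89%), 0 with the covariate (0.187%), 4 and 0 without those sets of libraries (22.5 and 0%), and 1 to 3 in left-out fits (2.51 to 16.2%), all of which held EPHA4.

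Library size alone moved the median of all genes to 0.25, 0.28, 0.15, 0.19 and 0.02 in the 5 comparisons, and folds under it are relative to that shift. Of 472 values of the other 8 members under these settings 41 changed sign, 0 of them called, the largest from a size of 0.27. Replicate numbers are shared between groups, but libraries with the same number did not deviate together: 4 of 24 pairs had r over 0.1, and 3 of 16 libraries correlated best with their own number. With the number as a replicate block the counts were 3, 0, 2, 0 and 2 in the 5 comparisons, as without it, and no call of EPHA2 or EPHA4 changed. A fit of only the libraries compared does not exist for the difference.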
